A study of Mus musculus with 5 samples.

Results

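The genes described here are 10 members of the piRNA pathway and its Tudor proteins, 10 of the 22359 protein-coding genes whose promoters were counted: Piwil1, Piwil2, Piwil4, Tdrd1, Tdrd9, Tdrkh, Mov10l1, Mael, Asz1 and Pld6. They were selected by name with Pcgf6 ChIP-seq values of these same libraries in view, so their ratios to the input are given as a description with no test. The measured quantity is the ChIP-seq depth within 2 kb on either side of the transcription start site (TSS), divided by the depth of the whole library and set against the input DNA in the same way. All 10 genes were found in the annotation and all 10 had input fragments in this window, as had 21587 of all promoters.

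Pcgf6 ChIP-seq was performed on CCE cells, an established line of mouse embryonic stem cells (ESCs) grown with LIF and cross-linked with disuccinimidyl glutarate and paraformaldehyde. The groups were an input library sequenced without pull-down, a Santa Cruz antibody (sc-160649) with 2 replicates and an Abcam antibody (ab48010) with 2 replicates, all from CCE chromatin, with no treatment or genetic change named in the labels. No library from cells without Pcgf6 was analysed here, and ChIP-seq does not measure expression, so neither the specificity of the pull-down nor the identity of the cells was checked by it. The libraries came from many cells, so binding in fewer cells and weaker binding per cell cannot be told apart.

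The 300-bp fragments behind the deposited depth were recovered and numbered 22790793 in the input, 2289378 and 2299311 in the Santa Cruz replicates, and 2760812 and 2849551 in the Abcam replicates. The replicates of an antibody held the same fragments at a fixed shift (87.8% of Santa Cruz replicate 1 was found in replicate 2, and 88.02% for Abcam), and over 10 kb windows they differed by less than the sampling noise, with a chi-square per degree of freedom of 0.146 and 0.153. They were therefore counted as 1 sample per antibody, without an SD, and joined with each shared fragment counted once, which left 2569690 Santa Cruz and 3169351 Abcam fragments, beside 22293588 of the input. Intervals are exact (Clopper-Pearson) at 95% and cover counting error only.

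piRNAs are small RNAs of the germ line that guide PIWI proteins to transposon transcripts and, in the nucleus, to transposon DNA that is then methylated. Tudor proteins dock onto methylated arginines of PIWI proteins and assemble the cytoplasmic granules and the mitochondrial surface sites where piRNAs are made. In somatic and pluripotent cells many of these genes are kept silent, with DNA methylation of their promoters as a known part of it. Pcgf6 is the defining subunit of the Polycomb complex PRC1.6, whose other subunits include the E-box binding pair Mga and Max and the E2F-type factor E2f6.

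The sequences of 7 promoters are shown first, since each holds a canonical E-box (CACGTG, the same on both strands) upstream of the TSS. Piwil2 and Asz1 hold theirs downstream of it and are not shown. They are read from the NCBIM37 (mm9) genome, 5′ to 3′ along the gene. Capitals mark CACGTG and the E2F-type core GCGGGA or its reverse complement TCCCGC. For Tdrkh the stretch runs from 700 to 451 bases before the TSS (chr3:94216518-94216767 on the plus strand), because its highest ChIP depth lay there and not at the TSS. For the others it is the 250 bases before the TSS: Tdrd1 at chr19:56900449-56900698 on the plus strand, Mov10l1 at chr15:88813089-88813338 on the plus strand, Mael at chr1:168168876-168169125 on the minus strand, Piwil1 at chr5:129241871-129242120 on the plus strand, Tdrd9 at chr12:113209520-113209769 on the plus strand and Pld6 at chr11:59601145-59601394 on the minus strand.
Tdrkh: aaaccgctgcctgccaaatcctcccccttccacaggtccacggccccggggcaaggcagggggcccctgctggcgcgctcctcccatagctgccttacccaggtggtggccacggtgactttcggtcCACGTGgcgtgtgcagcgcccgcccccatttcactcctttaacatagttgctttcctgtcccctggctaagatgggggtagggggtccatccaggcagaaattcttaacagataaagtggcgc
Tdrd1: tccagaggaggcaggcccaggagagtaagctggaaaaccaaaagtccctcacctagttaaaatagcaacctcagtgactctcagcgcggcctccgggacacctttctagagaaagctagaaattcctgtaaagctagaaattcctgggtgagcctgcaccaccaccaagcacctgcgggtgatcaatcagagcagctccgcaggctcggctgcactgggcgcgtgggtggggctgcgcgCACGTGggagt
Mov10l1: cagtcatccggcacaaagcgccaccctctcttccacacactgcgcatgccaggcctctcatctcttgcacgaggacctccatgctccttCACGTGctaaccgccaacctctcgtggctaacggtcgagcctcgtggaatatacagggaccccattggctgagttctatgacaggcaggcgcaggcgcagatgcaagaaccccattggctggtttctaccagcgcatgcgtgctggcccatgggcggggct
Mael: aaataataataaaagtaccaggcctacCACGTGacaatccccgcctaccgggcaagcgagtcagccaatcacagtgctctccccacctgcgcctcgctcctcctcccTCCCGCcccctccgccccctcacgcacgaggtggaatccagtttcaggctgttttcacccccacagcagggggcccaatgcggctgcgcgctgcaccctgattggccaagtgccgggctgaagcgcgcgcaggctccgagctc
Piwil1: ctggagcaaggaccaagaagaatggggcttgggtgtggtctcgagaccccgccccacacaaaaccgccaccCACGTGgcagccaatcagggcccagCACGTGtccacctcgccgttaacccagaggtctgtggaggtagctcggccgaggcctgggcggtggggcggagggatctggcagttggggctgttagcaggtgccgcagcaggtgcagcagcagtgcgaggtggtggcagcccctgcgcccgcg
Tdrd9: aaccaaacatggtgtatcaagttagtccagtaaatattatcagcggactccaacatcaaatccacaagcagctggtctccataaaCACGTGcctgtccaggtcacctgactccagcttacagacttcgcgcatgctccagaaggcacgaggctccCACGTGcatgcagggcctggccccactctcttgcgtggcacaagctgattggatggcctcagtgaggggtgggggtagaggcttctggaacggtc
Pld6: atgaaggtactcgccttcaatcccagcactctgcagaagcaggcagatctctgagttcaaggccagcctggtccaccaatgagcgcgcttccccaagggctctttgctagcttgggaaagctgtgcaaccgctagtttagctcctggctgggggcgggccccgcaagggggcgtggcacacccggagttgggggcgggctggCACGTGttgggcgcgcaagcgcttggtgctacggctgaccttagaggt

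Over the 10 promoters together, the depth ratio to the input was 2.25 and 2.31 in the Santa Cruz files and 2.35 in both Abcam files. The joined libraries held 167 Santa Cruz, 212 Abcam and 628 input fragments there, which is a ratio of 2.31 (1.93 to 2.74) and 2.37 (2.02 to 2.78). Tdrkh alone supplied 36 of the 167 Santa Cruz and 52 of the 212 Abcam fragments, and without it the ratio of the other 9 promoters was 1.97 (1.61 to 2.38) and 1.95 (1.62 to 2.32). Over all 21587 promoters the same ratio was 0.942 and 0.992.

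The members did not share this level. By joined fragments, 5 of 10 members reached a ratio of 2 or more with Santa Cruz, where 7.06% of all promoters did. With Abcam 5 of 10 reached it, where 6.74% of all promoters did. With both antibodies 4 of 10 members reached it (Tdrkh, Mov10l1, Tdrd1 and Piwil2), against a background of 2.82% of all promoters. Asz1 reached it with Santa Cruz only and Mael with Abcam only. Nothing is read from these shares, because the same ratios were known when the genes were chosen. The median ratio of the members was 2.02 with Santa Cruz and 1.86 with Abcam, and that of all promoters 0.897 and 0.938.

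**Figure D1:**
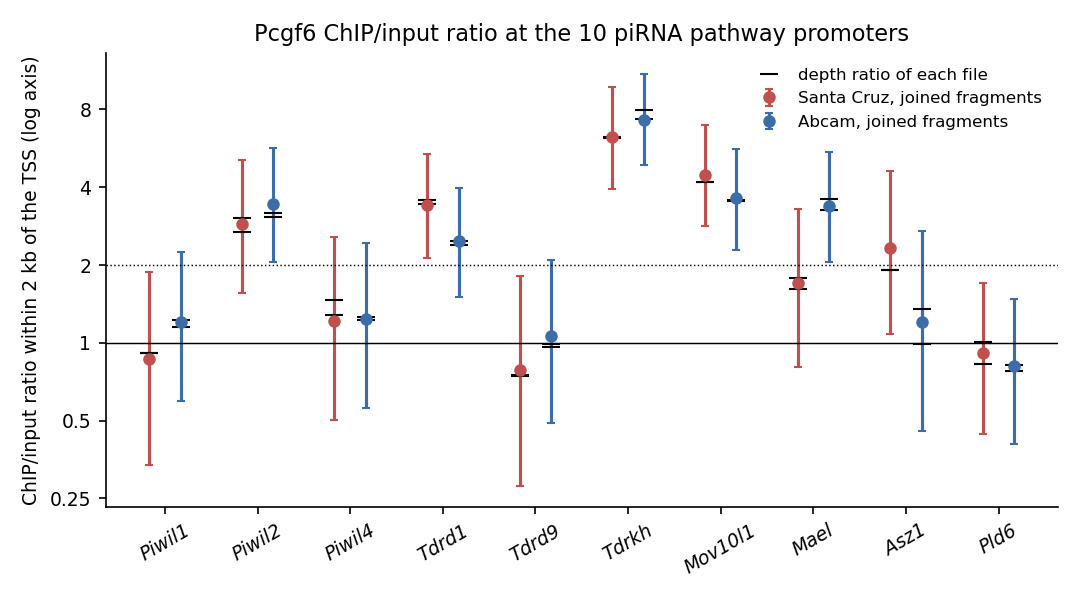
ChIP/input ratio within 2 kb of the TSS (log axis) for each of the 10 genes. Points are the joined fragments of an antibody, bars their exact 95% counting intervals, black dashes the depth ratio of each deposited file, the solid line a ratio of 1 and the dotted line 2. Tdrkh, Mov10l1, Tdrd1 and Piwil2 lie above 2 with both antibodies, and Piwil1, Piwil4, Tdrd9 and Pld6 lie between 0.789 and 1.23.

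Of the PIWI proteins, which bind piRNAs and cut or silence their targets, Piwil2 had the highest ratios. Piwil2 (Mili, the fetal and pachytene PIWI protein) is ENSMUSG00000033644.4, on the minus strand of chromosome 14 from 70772287 to 70828901. The mean depth in its window was 3.91 in the input, 1.05 and 1.2 in the Santa Cruz files and 1.5 in both Abcam files. With the smaller ChIP libraries taken into account, this was a ratio of 2.89 (1.57 to 5.09) (Santa Cruz, 17 fragments) and 3.45 (2.05 to 5.67) (Abcam, 25 fragments), where the input held 51. The start of an annotated U11 snRNA lies 497 bp downstream of this TSS on the same strand, inside the window.

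Piwil1 (Miwi, the PIWI protein of round spermatids) and Piwil4 (Miwi2, the nuclear PIWI protein of fetal germ cells) had ratios between 0.868 and 1.23. For Piwil1 (ENSMUSG00000029423.6) the mean depth was 5.37 in the input, 0.493 in both Santa Cruz files and 0.750 and 0.825 in the Abcam files, giving 0.868 (0.336 to 1.88) and 1.21 (0.595 to 2.24). For Piwil4 (ENSMUSG00000036912.11) it was 4.41 in the input, 0.647 and 0.568 with Santa Cruz and 0.675 in both Abcam files, giving 1.22 (0.502 to 2.56) and 1.23 (0.562 to 2.44). These rest on 7 to 12 ChIP fragments per antibody.

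Of the Tudor proteins, Tdrkh and Tdrd1 had high ratios and Tdrd9 did not. Tdrkh (also called Tdrd2) is a mitochondrial Tudor protein that recruits the trimmer of piRNA 3′ ends. The gene (ENSMUSG00000041912.6) is on the plus strand of chromosome 3 from 94217218 to 94236555. Its mean depth was 3.82 in the input, 2.40 in both Santa Cruz files, and 3.67 and 3.52 in the Abcam files. The ChIP libraries thus came near the depth of an input many times their size. The ratio was 6.25 (3.95 to 9.78) from 36 fragments and 7.32 (4.87 to 11) from 52, against 50 in the input. Of all promoters, 0.653% had a ratio at least as high with Santa Cruz and 0.204% with Abcam, which placed Tdrkh at rank 141 and rank 44.

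Tdrd1 (ENSMUSG00000025081.7), a Tudor protein of the germ granules that binds Piwil2, had a mean depth of 5.44 in the input, 1.87 and 1.95 with Santa Cruz, and 1.63 and 1.62 with Abcam. The ratio was 3.42 (2.13 to 5.37) for the 28 Santa Cruz fragments and 2.48 (1.5 to 3.96) for the 25 Abcam fragments, where the input held 71. Both files of each antibody gave values on the same side of 2, but they hold mostly the same fragments and are not independent. Tdrd9 (ENSMUSG00000054003.7), the Tudor helicase that works with Piwil4, had a mean depth of 4.99 in the input, 0.375 in both Santa Cruz files and 0.600 in both Abcam files. Its ratio was 0.789 (0.279 to 1.81) and 1.07 (0.489 to 2.09), from 6 and 10 fragments.

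Mov10l1, the RNA helicase that starts piRNA production from precursor transcripts, had the next highest ratio after Tdrkh with both antibodies. Its mean depth was 4.95 in the input, 2.09 in both Santa Cruz files, and 2.12 and 2.20 in the Abcam files. From 32 fragments with either antibody against 62 in the input, the ratio was 4.48 (2.83 to 6.97) and 3.63 (2.29 to 5.65). The gene (ENSMUSG00000015365.8) is on chromosome 15 from 88813339 to 88885582.

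Mael (ENSMUSG00000040629.3), which acts with Piwil4 in transposon silencing, differed most between the antibodies. Its mean depth was 4.16 in the input, 0.675 and 0.750 with Santa Cruz, and 1.65 and 1.87 with Abcam. The ratio was 1.70 (0.805 to 3.29) from 11 Santa Cruz fragments and 3.39 (2.06 to 5.46) from 27 Abcam fragments, and the 2 intervals overlapped.

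Asz1 and Pld6 are proteins of the outer mitochondrial membrane, where Pld6 is the nuclease (or lipase) of piRNA production and Asz1 (Gasz) a scaffold. Asz1 (ENSMUSG00000010796.5) had a mean depth of 3.12 in the input, 0.600 in both Santa Cruz files, and 0.375 and 0.525 in the Abcam files. Its ratio was 2.33 (1.08 to 4.61) with the Santa Cruz antibody and 1.2 (0.455 to 2.7) with the Abcam antibody, from 11 and 7 fragments. The depth ratio of each Santa Cruz file taken alone, 1.92 and 1.91, was below 2. Pld6 (ENSMUSG00000043648.7) had the highest input depth of the members (8.07) and ChIP depths of 0.673, 0.822, 0.761 and 0.829. Its ratio was 0.918 (0.444 to 1.71) and 0.812 (0.406 to 1.48).

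The 2 antibodies were compared with each other without the input, by a two-sided exact binomial test on their fragments with Benjamini-Hochberg adjustment over the 21441 promoters that had a fragment. The test compares 2 libraries and not conditions. No member passed the threshold of an adjusted p of 0.05, which 0.00933% of all promoters did (2 in number), and no member had an unadjusted p under 0.05. The lowest was that of Mael (p = 0.0516 in the exact test, adjusted p = 1), whose Abcam level was 1.99 times its Santa Cruz level (0.956 to 4.45). At Tdrkh, the member with most fragments, the Abcam level was 1.17 times the Santa Cruz level (0.751 to 1.84), an interval that leaves room for a difference of either sign. Over the 10 promoters together the quotient was 1.03 (0.836 to 1.27).

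**Figure D2:**
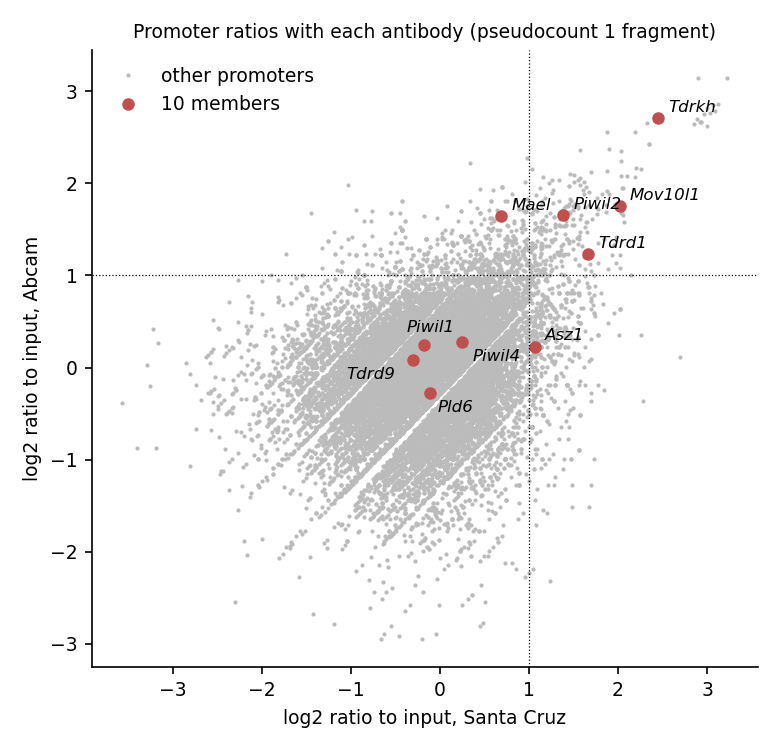
log2 ratio to the input with Santa Cruz (x axis) and Abcam (y axis) at the 21587 promoters with an input fragment, with a pseudocount of 1 fragment. Red points are the 10 members, and dotted lines mark a ratio of 2. Tdrkh lies near the upper right end, Mov10l1, Tdrd1 and Piwil2 lie past both lines, and Piwil1, Piwil4, Tdrd9 and Pld6 lie inside the cloud of all promoters.

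Summed over the members, the ChIP fragments were more central than those of the input. Of the Santa Cruz fragments within 2 kb, 64.7% (56.9 to 71.9) had their middle within 500 bp of the TSS, and of the Abcam fragments 61.8% (54.9 to 68.4), against 39.3% (35.5 to 43.3) of the input fragments. Over all promoters the shares were 32.7%, 34.4% and 34.0%. By gene, the central share was below that of the input at Pld6 with Santa Cruz (27.3% against 33.7%). With Abcam it was below at Piwil1 (25% against 37.1%) and Asz1 (42.9% against 58.5%). Single members can rest on few fragments. At Tdrd9 4 of 6 Santa Cruz fragments were central (22.3% to 95.7%), an interval that holds the 33.3% of the input. How many of all promoters have a central share above the input was not counted, so nothing is read from the single members. At Tdrkh the shares of 58.3% and 59.6% were close to the 54.0% of the input, and its upstream maximum lay outside this stretch. Within 500 bp the summed ratio of the members was 3.79 (3.0 to 4.77) for Santa Cruz, and for Abcam 3.73 (3.0 to 4.63). These shares come from the same fragments as the ratios above and carry no test.

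In this central stretch the order of the members changed. Mov10l1 had 10.4 (5.51 to 19.9) with the Santa Cruz antibody and 5.63 (2.73 to 11.4) with the Abcam antibody. Tdrkh had 6.75 (3.63 to 12.4) and 8.08 (4.66 to 14.1), and Tdrd1 had 6.59 (3.43 to 12.5) and 5.91 (3.15 to 11). Mael, below 2 with Santa Cruz over the full window, had 3.30 (1.27 to 7.77) with the Santa Cruz antibody and 6.03 (3.03 to 11.9) with the Abcam antibody here. Piwil1, Piwil4, Tdrd9 and Pld6 held 3 to 7 ChIP fragments each here, and their ratios ran from 0.744 to 2.71.

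The mean depth over the members, scaled to 10000000 fragments, reached 19.1 (Santa Cruz) and 19.2 (Abcam) within 150 bp downstream of the TSS, and 4.46 in the input. Without Tdrkh the highest values were 16.9, 15.8 and 4.37. From 2 to 5 kb away, the Santa Cruz median was 1.33, the Abcam median 1.22 and that of the input 1.58, so that the ChIP depth was not raised there. Averaged over all promoters, the input reached 3.51 and the ChIP libraries 3.16 and 3.46.

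**Figure D3:**
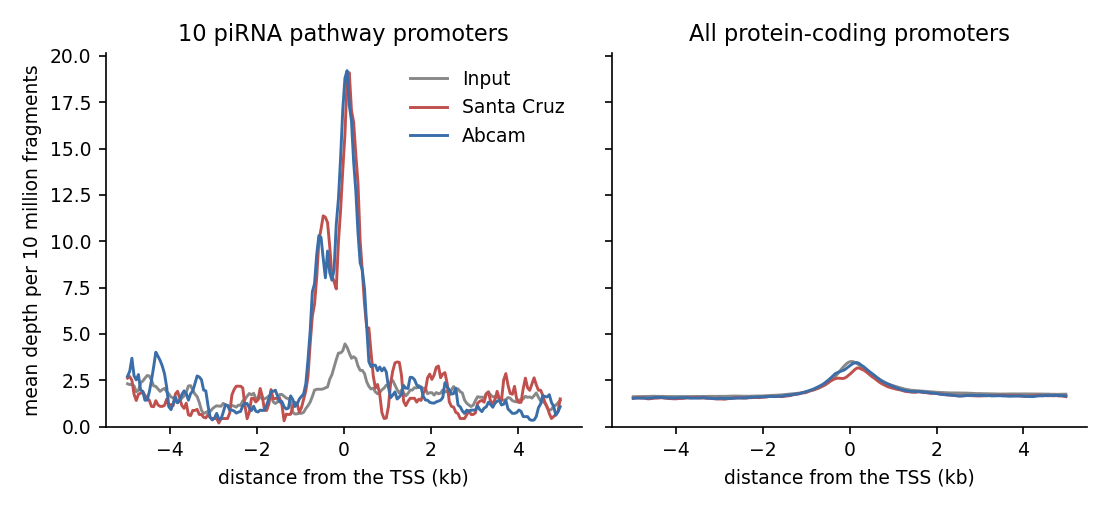
Mean depth per 10000000 fragments in 50-bp bins from 5 kb before to 5 kb after the TSS, for the 10 members (left) and all promoters with an input fragment (right). Over the members both antibodies rise to about 19.1 just downstream of the TSS where the input reaches 4.46, with a shoulder upstream, to which the upstream maximum of Tdrkh adds, while over all promoters the 3 lines lie together.

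Tdrkh had 2 maxima. The upstream one reached a scaled depth of 57.4 with Santa Cruz and 66.7 with Abcam, in the bins centred 525 and 575 bp before the TSS, where the input did not pass 3.64. The other lay just downstream of the TSS, at 40.7 with Santa Cruz and 50.6 with Abcam, against at most 5.49 in the input. Between them, 225 bp before the TSS, the depth fell to 3.70 and 9.23. From 1000 to 251 bp before the TSS the libraries held 19 Santa Cruz, 22 Abcam and 14 input fragments, and from 150 bp before to 700 bp after it 14, 25 and 23. Both antibodies showed both maxima.

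The upstream maximum of Tdrkh lay over the first exon of the annotated lincRNA 1700040D17Rik, which is read in the other direction and runs from 413 to 602 bp before the Tdrkh TSS. The printed E-box of Tdrkh begins 573 bases before the TSS. Averaged over both antibodies, the highest 50-bp bin ran from 600 to 551 bp before the TSS, and its middle was 5 bp from the centre of that E-box. The window around the Tdrkh TSS therefore holds 2 annotated starts, and the data cannot assign the upstream fragments to either gene.

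At the other members with a ratio of 2 or more, the highest bin and the nearest E-box were farther apart. At Tdrd1 the bin ran from 50 to 99 bp after the TSS, 83 bp from the middle of the E-box that begins 11 bases before the TSS. The distance was 233 bp at Mov10l1, 266 bp at Piwil2 and 395 bp at Mael. At Asz1 it was 125 bp, but the scaled ChIP depth of that bin (7.46) did not exceed the input there (7.90). With fragments of 300 bp and 7 to 32 of them per antibody at these 5 promoters, such a bin locates a maximum only roughly.

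**Figure D4:**
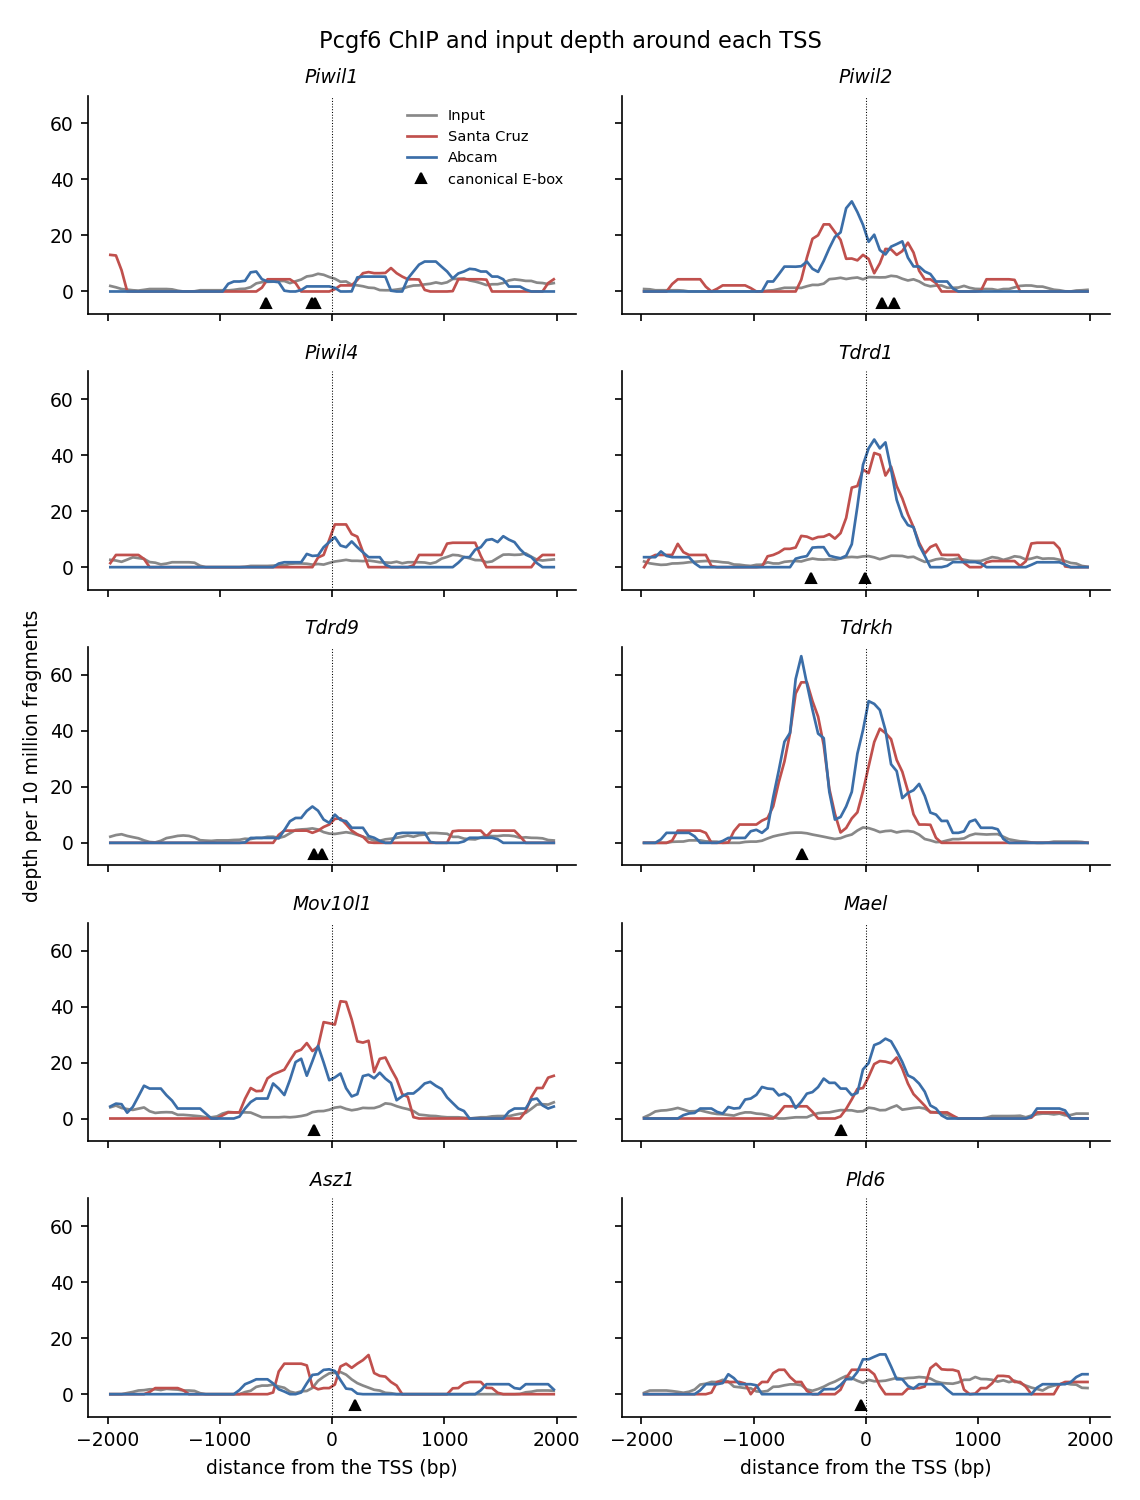
Depth per 10000000 fragments in 50-bp bins within 2 kb of each TSS (dotted line) for the input, Santa Cruz and Abcam. Triangles mark canonical E-boxes from 1000 bases before to 500 after the TSS. Tdrkh shows 2 maxima, and Tdrd1, Mov10l1, Piwil2 and Mael show raised depth around the TSS, at Piwil2 both before and after it. Piwil1, Tdrd9 and Pld6, each with an E-box near the TSS, do not pass 14.2 with either antibody. Asz1, also with an E-box, reaches 14.0 with Santa Cruz and 8.89 with Abcam. Piwil4, without an E-box, reaches 15.3 with Santa Cruz and 11.1 with Abcam.

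The canonical E-box was counted in the members and in all promoters as a description, with no test. From 250 bases before to 50 after the TSS, CACGTG occurred in 6 of 10 members (60.0%) and in 7.76% of all promoters. From 1000 before to 500 after, a stretch chosen after the position of the Tdrkh maximum was seen, it occurred in 9 of 10 members and 22.5% of all promoters, Piwil4 being the one without it. GCGGGA, on either strand and possibly overlapping the longer word, was in 1 of 10 members (Mael, with 2 copies) and 25.4% of all promoters in the shorter stretch. GCGGGAA, on either strand, was in none of the 10 and 5.85% of all. No match says only that these letters are not in the window.

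Members with and without high ratios held the E-box. In the shorter stretch it was present in Tdrd1, Mov10l1 and Mael, and equally in Piwil1, Tdrd9 (2 copies each) and Pld6. Within 2 kb the ratios of Piwil1, Tdrd9 and Pld6 were between 0.789 and 1.21. Within 500 bp Tdrd9 had 2.24 (0.808 to 5.42) with Abcam. Tdrkh and Piwil2 had no E-box in the shorter stretch. Over all 1676 promoters with CACGTG there, the median ratio was 0.934 with Santa Cruz and 0.956 with Abcam, and over the 19911 without it 0.893 and 0.938. Their summed ratios were 1.01 (0.994 to 1.03) and 1.07 (1.05 to 1.08) with CACGTG, and 0.935 (0.930 to 0.941) and 0.985 (0.980 to 0.990) without it. A ratio of 2 with both antibodies was reached by 65 of the promoters with CACGTG (3.88%) and 544 of those without (2.73%).

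The ratio of observed to expected CpG in the shorter stretch ran from 0.430 at Tdrd9 to 1.11 at Tdrkh, with a median of 0.709 against 0.558 over all promoters. Tdrkh, the member with the highest ChIP ratio, was the most CpG-rich by this measure. Mael (0.780), Asz1 (0.767), Mov10l1 (0.740) and Tdrd1 (0.733) followed. Next came Pld6 (0.686), whose ChIP ratios were 0.918 with Santa Cruz and 0.812 with Abcam, and so above Piwil2 by this measure. Piwil2, at 0.545, was close to Piwil1 (0.535) and Piwil4 (0.532), so that the measure did not set it apart from members with ratios near 1. The median GC content of the members was 63.7%, against 55.7% over all promoters.

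The promoter most like Tdrkh over the log2 ratios of the 4 ChIP files (pseudocount 1 fragment), among 19158 promoters with at least 20 input fragments, was Stk31, which encodes another Tudor protein of germ cells (also called Tdrd8). The distance was 0.333 on the log2 scale. Stk31 held 34 Santa Cruz and 52 Abcam fragments against 52 in the input, which are ratios of 5.67 (3.57 to 8.91) and 7.03 (4.70 to 10.5). The next 4 were Gm11168, Neto2, Gm10801 and Gm10719, at distances of 0.398 to 0.473. Gm11168, Gm10801 and Gm10719 held 148, 411 and 168 input fragments, where a median promoter held 70. Unlike at Tdrkh, their Santa Cruz ratios (8.38, 8.55 and 8.16) were above their Abcam ratios (7.32, 7.31 and 6.95). Likeness here is over 4 files that stand for 2 libraries.

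Among 17 other genes of the piRNA pathway, 15 were matched to a promoter, and Tdrd5 and Btbd18 were not analysed here. Of these 15, 4 reached a ratio of 2 with both antibodies, as 2.82% of all promoters did: Ddx4, Stk31, Gpat2 and Henmt1. Ddx4, the germ cell RNA helicase, had the highest ratios of the list, 9.22 (5.52 to 15.4) with the Santa Cruz antibody and 10.6 (6.61 to 17.1) with the Abcam antibody, above those of every member. Gpat2, a mitochondrial membrane protein of piRNA production, had 2.73 (1.72 to 4.21) and 2.61 (1.69 to 3.93). Henmt1, which methylates the 3′ end of piRNAs, had 2.98 (1.75 to 4.91) and 3.85 (2.47 to 5.90).

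The lowest ratios of that list were at Tdrd7, a Tudor protein of the germ granules, with 0.496 (0.131 to 1.33) and 0.402 (0.107 to 1.08). The median of the list was 0.901 with Santa Cruz and 1.67 with Abcam, and with Santa Cruz it was thus close to that of all promoters. Of 5 Tudor proteins outside the germ cell pathway (Tdrd3, Snd1, Akap1, Smn1 and Smndc1), none reached a ratio of 2 with both antibodies. The highest of these with Santa Cruz was Tdrd3, at 1.63 (0.799 to 3.04), and with Abcam Snd1, at 3.10 (1.57 to 5.85), whose Santa Cruz ratio was 1.02 (0.263 to 2.86). The lowest was Akap1, at 0.975 and 0.711.

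The summed ratio of the members fell as the window widened, but not every member followed. Asz1 with Abcam had 1.2 within 2 kb and 1.56 within 5 kb. Within 1 kb the summed ratio was 3.15 with Santa Cruz and 3.28 with Abcam, within 5 kb 1.52 and 1.57, and within 10 kb 1.21 and 1.19. Within 1 kb, 6 members reached 2 with Santa Cruz (9.11% of all promoters), 5 with Abcam (9.19%) and 5 with both (3.62%). Within 5 kb the numbers were 3 (4.65%), 3 (4.35%) and 1 (1.8%). Within 10 kb no member reached 2 with Santa Cruz (3.42%), 1 did with Abcam (2.95%), namely Tdrkh at 2.26, and none did with both (1.31%).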

How the data were processed

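Pcgf6 ChIP-seq and input libraries of CCE ESCs were analysed. The authors deposited a coverage signal for each library, counting at each mm9 position the reads lengthened to 300 bp that cover it, with no scaling and no input correction. Bowtie is the tool listed in the submitters' processing notes, and read filters and duplicate treatment are not given in the sources used here, so a duplicate limit could have lowered tall maxima.

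Fragment positions were recovered from rises and falls of the depth, a position was allowed 1 fragment, and each fragment was counted where its middle fell. Replicates of an antibody held the same fragments and were joined, in place of the replicate comparison of the design. Fragments were counted within 2 kb of the TSS used by most protein-coding transcripts (GENCODE annotation of NCBIM37, the upstream one on a tie) and divided by library totals. Depth limited precision: a median promoter held 70 input fragments, and the members 6 to 52 ChIP fragments per antibody. Fragment recovery, the joining of replicates, the ratios with their intervals and the antibody test were tried on simulated data. The other steps were not. A call was a ratio of 2 or more.

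The members and the lists beside them were chosen with earlier results of these data known. All 10 members are named. From the lists, genes at or over a ratio of 2 with both antibodies and the highest and lowest of each list are named, and for the member with most ChIP fragments over scaled input the 5 most alike promoters. Alternatives were other windows, the depth as deposited, scaling by 10 kb windows, the most upstream TSS, each replicate left out, a minimum of 10 fragments and other sequence stretches. Software was Python 3.11.15 with scipy 1.17.1, numba 0.67.0, numpy 2.4.6, pandas 2.3.3, pyarrow 21.0.0 and matplotlib 3.10.9.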

Additional observations from a re-analysis of the deposited data

How the results depend on the processing

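The summed ratio of the members kept its direction, above 1, under every alternative run, and its size followed the window. It was 3.15 (Santa Cruz) and 3.28 (Abcam) within 1 kb, 1.52 and 1.57 within 5 kb, and 1.21 and 1.19 within 10 kb. A ratio of 2 within 1 kb was reached by 6 members with Santa Cruz, 5 with Abcam and 5 with both. Of all promoters, 9.11%, 9.19% and 3.62% reached it. Within 5 kb the numbers were 3 (4.65% of all promoters), 3 (4.35%) and 1 (1.8%). Within 10 kb they were 0 (3.42%), 1 (2.95%) and 0 (1.31%). Without Tdrkh, the member with most ChIP fragments, the summed Abcam ratio was 1.95. Leaving out a replicate gave summed ratios of 2.22 to 2.31 (Santa Cruz) and 2.33 to 2.34 (Abcam). The replicates of an antibody hold mostly the same fragments, so this alternative could move the summed ratios only little. Asz1 fell below 2 without either Santa Cruz replicate, which left 4 members. The number of all promoters that differed between the antibodies was 2, or 1 within 1 kb, and 2 to 8 with a replicate left out, none of them a member. Of 10 members, 4 held GCGGGA from 500 bases before to 500 after the TSS, where 48.7% of all promoters did. From 1000 before to 500 after, a stretch added after seeing the data, 4 members and 51.8% of all promoters held it. The cause of these changes was not tested. From 2 to 5 kb away the median of the mean member depth was 1.33 (Santa Cruz), 1.22 (Abcam) and 1.58 (input). Depth farther away was not profiled. The depth as deposited and the other scaling left the summed ratios within their counting intervals. By the depth as deposited, 4 members reached 2 with Santa Cruz, Asz1 being at 1.91, and 5 with Abcam. The share of all promoters by that measure is not given here. At all 10 members the most upstream TSS is the TSS already used, so that alternative could not change a member ratio. No paired analysis was possible because the replicates of an antibody hold the same fragments and count as 1 library. At 6 to 12 ChIP fragments per antibody, the intervals of Piwil1, Piwil4 and Tdrd9 held both 1 and 1.5.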
